A study of Bos taurus with 28 samples.

Results

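The miR-26 family was represented by 3 miRNAs, bta-miR-26a, bta-miR-26b and bta-miR-26c, which stood beside 129 others in the table of bovine raw milk extracellular vesicles (EVs). The members were taken by name, as every entry called miR-26 followed by a letter a to c. No measured value entered that rule, but the family was chosen with earlier results of these data known. EVs are membrane particles that cells release, and milk EVs carry miRNAs, short RNAs that guide the repression of matching messenger RNAs. EVs were isolated from skimmed milk of healthy Bos taurus dairy cows by acid precipitation of casein, filtration and ultracentrifugation, and their small RNA was sequenced. The 14 evening and 14 morning libraries came from the same 4 cows over 4 consecutive days, with 6 libraries each from Cow 1 (without day 2) and Cow 3 (without day 3) and 8 each from Cow 2 and Cow 4. No animal was treated, and the sources used here give no breed, age or lactation stage. Each cow was milked repeatedly and stands for 1 animal, so differences between cows describe these 4 animals only. Somatic cell count (SCC), the number of cells in a volume of milk and a measure of udder inflammation, lay between 18000 and 300000 cells/mL, which is 18 to 300 cells/µL.

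miR-26a and miR-26b are conserved miRNAs that lie in introns of the CTDSP genes, which encode phosphatases acting on RNA polymerase II. In human and mouse cells miR-26a and miR-26b are known to repress the histone methyltransferase EZH2. In goat mammary epithelial cells miR-26a and miR-26b have been tied to milk fat synthesis. In the RefSeq gene table for cattle (assembly ARS-UCD2.0), MIR26B lies within CTDSP1, MIR26A-2 within CTDSP2 and MIR26A-1 within CTDSPL. MIR26C is listed over the identical interval as MIR26A-1, also within CTDSPL, and only 3 pairs among the 1032 miRNA genes of that table share an interval in this way. The table used gives no strand, and whether reads were matched to mature miRNAs by strand is not given in the sources used here. The division of reads between miR-26a and miR-26c is therefore uncertain and rests on the names in the deposited table. Mature sequences were not analysed here.

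By the names in the deposited table, miR-26c was the most abundant member, miR-26b the next and miR-26a by far the lowest, in every one of the 28 libraries. This order rests on the uncertain division of reads between miR-26a and miR-26c. Levels are given as log2 CPM, where CPM is reads scaled to a common library size, and 1 unit is a doubling. They were not scaled by length. miR-26c averaged 14.87 ± 0.22 log2 CPM (SD, n = 28), with a lowest value of 14.27, a median of 14.90 and a highest of 15.18. It ranked 11 in the table by mean level. miR-26b averaged 13.23 ± 0.30 log2 CPM (n = 28; lowest 12.68, median 13.23, highest 13.75) and ranked 21. miR-26a averaged 9.30 ± 0.54 log2 CPM (n = 28; lowest 8.29, median 9.23, highest 10.43) and ranked 60. The ranges of the 3 members did not overlap.

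The read counts behind these levels differed in the same order, with the same uncertainty about their division. miR-26c had 2168 to 10504 reads per library (median 4940), miR-26b 674 to 3498 (median 1573) and miR-26a 45 to 187 (median 104). The whole table held 101968 to 325211 reads per library, with 120554 to 325211 in evening libraries and 101968 to 254454 in morning libraries. The family took 4.13% of all 4758131 reads, and 1.98% to 6.20% of the reads of a library. Of the family's own reads, miR-26c took 74.1% (68.1% to 80.0% by library), miR-26b 24.3% (16.5% to 30.5%) and miR-26a 1.55% (0.934% to 3.44%). Read counting alone would give an SD of 0.0214 in log2 for miR-26c, 0.0380 for miR-26b and 0.150 for miR-26a. The observed spread of each member was above that.

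**Figure D1:**
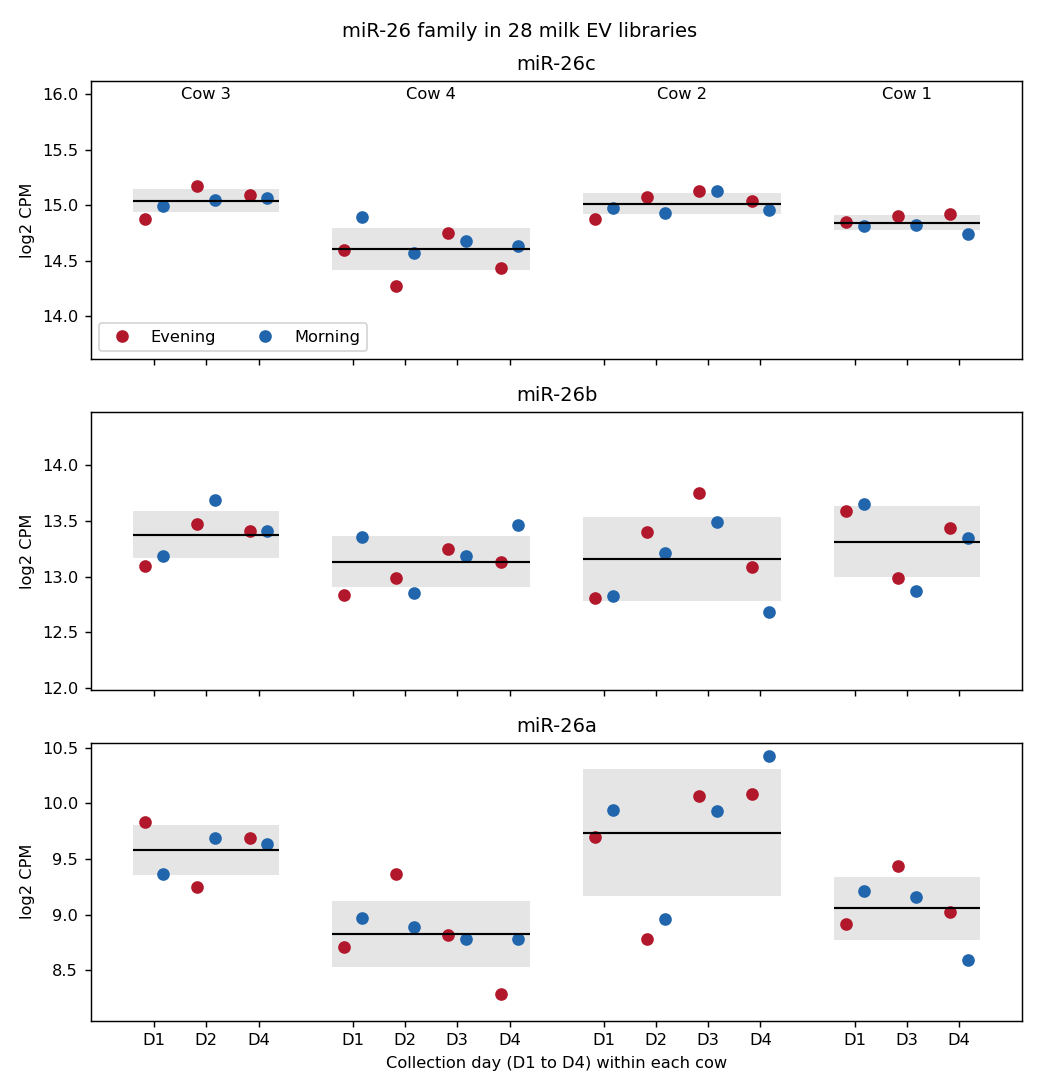
Level of each family member in log2 CPM (vertical axes, the same span of log2 units in each panel) by cow and collection day (horizontal axis), with evening libraries as red points and morning libraries as blue points; black lines are cow means and grey bands ± 1 SD (n = 6 or 8 libraries). miR-26c lay lowest in Cow 4, at a mean of 14.60 log2 CPM, and miR-26a varied most in Cow 2, from 8.78 to 10.43 log2 CPM.

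The study asked whether milk EV miRNAs change between the milkings of a day. No family member passed the test between sessions. miR-26c lay at 14.27, 14.89 and 15.18 log2 CPM in evening libraries (lowest, median and highest), against 14.57, 14.91 and 15.13 in morning libraries. For miR-26b these values were 12.81, 13.19 and 13.75 in the evening and 12.68, 13.28 and 13.69 in the morning. For miR-26a they were 8.29, 9.30 and 10.09 in the evening and 8.60, 9.18 and 10.43 in the morning. The ranges of the sessions overlapped in all members. The test was limma, which fits a linear model to every miRNA and shares variance estimates between them, and its p-values were adjusted over all miRNAs of the table to a false discovery rate (FDR) of 0.05. With cow as a covariate, the evening minus morning difference in log2 CPM was -0.02 for miR-26c (SE 0.07, 95% interval -0.15 to 0.12), 0.001 for miR-26b (SE 0.11, -0.23 to 0.23) and -0.03 for miR-26a (SE 0.15, -0.33 to 0.28), with an adjusted p of 0.996 in limma for each. Over the table, 0% of the miRNAs passed an FDR of 0.05 in this comparison, and 2 had an unadjusted p below 0.05. With each cow and day pair as a replicate block the estimates cannot change, since each pair holds 1 evening and 1 morning library. The SE was then 0.06 for miR-26c, 0.07 for miR-26b and 0.11 for miR-26a (adjusted p = 0.995 in limma for each). The intervals above do not use the pairing.

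Single pairs of milkings differed by more than these means. Among the 14 cow and day pairs, the evening value was the larger in 8 for miR-26c, 8 for miR-26b and 7 for miR-26a. The larger value of a pair exceeded the smaller by a median of 1.08-fold for miR-26c, 1.09-fold for miR-26b and 1.22-fold for miR-26a, and at most by 1.23-fold, 1.44-fold and 1.41-fold in the same order. The widest gap of each member was in Cow 4. There, miR-26c had 14.59, 14.27, 14.75 and 14.44 log2 CPM in the evenings of days 1 to 4, against 14.89, 14.57, 14.68 and 14.63 in the mornings, so that the evening was lower on all days but day 3. The lowest of these, on the evening of day 2, came from the library in which the 10 most abundant miRNAs took the highest share of reads (79.4%), and the part of that share was not tested. In Cow 1 the evening value of miR-26c was the higher in all 3 pairs (14.85, 14.91 and 14.92 log2 CPM in the evening against 14.81, 14.82 and 14.74 in the morning of days 1, 3 and 4). For no member did the session effect pass a test of difference between cows (limma interaction F test, adjusted p = 0.969 for each, against 0% of miRNAs called and 1 with an unadjusted p below 0.05).

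**Figure D2:**
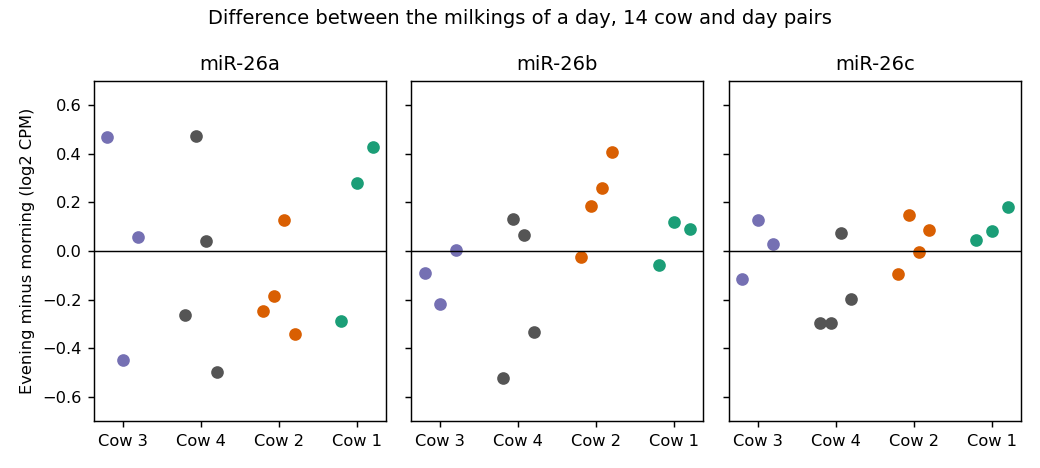
Evening minus morning difference in log2 CPM (vertical axis) for each of the 14 cow and day pairs, by cow and in day order within a cow (horizontal axis), 1 panel per family member and 1 point per pair. Points scatter on both sides of 0 in each panel, with an SD over pairs of 0.343 for miR-26a, 0.242 for miR-26b and 0.159 for miR-26c.

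The cows differed in miR-26a and miR-26c, while miR-26b did not pass the test. For miR-26c, Cow 3 averaged 15.04 ± 0.10 log2 CPM (SD, n = 6), Cow 4 14.60 ± 0.19 (n = 8), Cow 2 15.01 ± 0.09 (n = 8) and Cow 1 14.84 ± 0.07 (n = 6). The lowest, median and highest libraries had 14.87, 15.06 and 15.18 log2 CPM for Cow 3, 14.27, 14.61 and 14.89 for Cow 4, 14.88, 15.01 and 15.13 for Cow 2 and 14.74, 14.84 and 14.92 for Cow 1. Only the highest library of Cow 4 reached the values of Cow 2 and Cow 3. For miR-26a, Cow 3 averaged 9.58 ± 0.22 log2 CPM, Cow 4 8.83 ± 0.30, Cow 2 9.74 ± 0.57 and Cow 1 9.06 ± 0.29, so that Cow 4 was the lowest here as well. For miR-26b, Cow 3 averaged 13.38 ± 0.21 log2 CPM, Cow 4 13.13 ± 0.23, Cow 2 13.16 ± 0.37 and Cow 1 13.31 ± 0.32, and the ranges of all 4 cows overlapped.

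By limma's F test over the 4 cows, miR-26c (F = 10.1, adjusted p = 0.000622) and miR-26a (F = 9.10, adjusted p = 0.00108) passed an FDR of 0.05, and miR-26b did not (F = 1.15, adjusted p = 0.436). This test called 47.0% of the miRNAs of the table, and read against that share the 2 of 3 members called are no result about the family. The call of miR-26c rested on Cow 4. Without that cow it was lost, at an F of 2.55 (adjusted p = 0.184), while miR-26a kept its call without any 1 cow. In bulk EV samples, fewer vesicles of one origin and less of a miRNA per vesicle cannot be told apart.

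In single contrasts, Cow 3 exceeded Cow 4 in miR-26c by 0.44 in log2 (SE 0.09, adjusted p = 0.000675) and in miR-26a by 0.75 (SE 0.21, adjusted p = 0.00773), where 25.8% of miRNAs were called. Cow 4 was below Cow 2 in miR-26c by a difference of -0.41 (SE 0.09) and in miR-26a by one of -0.91 (SE 0.19), both at an adjusted p of 0.00118, with 18.9% called. Cow 2 exceeded Cow 1 in miR-26a by 0.68 (SE 0.21, adjusted p = 0.0297; 9.85% called). No member was called for Cow 3 minus Cow 1 (22.7% called), Cow 3 minus Cow 2 (30.3% called) or Cow 4 minus Cow 1 (5.30% called). In those contrasts miR-26c differed by 0.20 (95% interval -0.01 to 0.40), 0.03 (-0.16 to 0.22) and -0.24 (-0.43 to -0.05), and miR-26a by 0.52 (0.06 to 0.98), -0.16 (-0.59 to 0.27) and -0.23 (-0.66 to 0.20). For miR-26b no contrast passed, and the widest estimate was 0.24 for Cow 3 minus Cow 4 (95% interval -0.07 to 0.56). The contrasts share cows and are not independent.

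Some of these calls depended on the scaling, on the unit of replication or on single libraries. With the mean of each cow and day pair as 1 value, miR-26a lost its calls for Cow 3 minus Cow 4 (adjusted p = 0.0700) and Cow 2 minus Cow 1 (adjusted p = 0.20), and miR-26c kept both of its calls. With the library medians set equal, the difference of Cow 4 minus Cow 2 in miR-26c was -0.23 (adjusted p = 0.121), and after quantile normalization it was -0.28 (adjusted p = 0.0592). Cow 3 minus Cow 1 passed with equal medians at 0.37 for miR-26c and 0.69 for miR-26a (adjusted p = 0.0315 for each), and Cow 3 minus Cow 2 then passed for miR-26b at 0.42 (adjusted p = 0.0430). With plain read totals, Cow 3 minus Cow 1 passed at 0.47 for miR-26c (adjusted p = 0.0419) and 0.79 for miR-26a (adjusted p = 0.0130), and Cow 3 minus Cow 4 passed for miR-26b at 0.53 (adjusted p = 0.0433). With session and collection day as covariates, Cow 3 minus Cow 1 passed for miR-26a at 0.66 (adjusted p = 0.0470). For Cow 2 minus Cow 1, miR-26a lost its call without any 1 of 8 libraries. The difference was 0.65, 0.59 and 0.67 without the day 1 evening, day 4 morning and day 4 evening library of Cow 1 (adjusted p = 0.0666, 0.0924 and 0.0576). It was 0.65, 0.65, 0.63, 0.58 and 0.63 without the day 1 morning, day 3 morning, day 3 evening, day 4 morning and day 4 evening library of Cow 2 (adjusted p = 0.0588, 0.0550, 0.0585, 0.0771 and 0.0638).

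**Figure D3:**
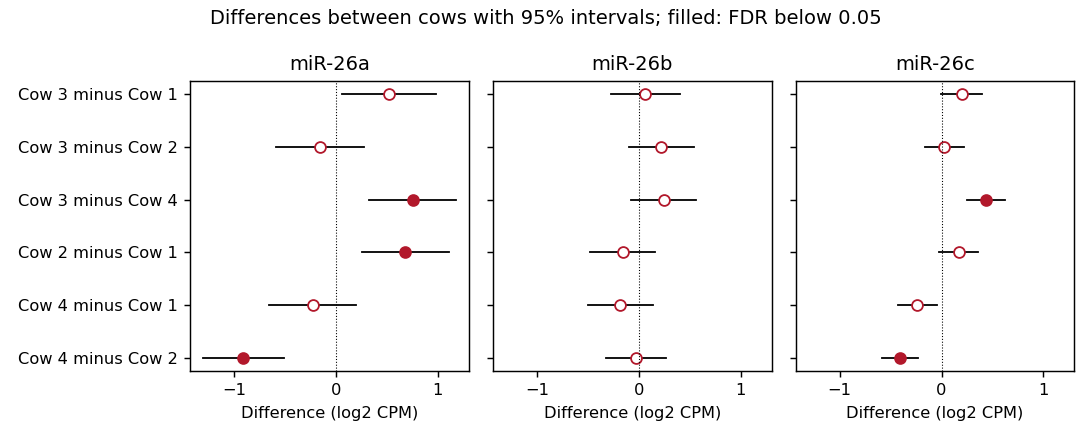
Differences between cows in log2 CPM (horizontal axis, points with 95% intervals from limma) for the 6 pairs of cows (rows), 1 panel per family member; filled points passed an FDR of 0.05. miR-26a passed in 3 contrasts, miR-26c in 2 and miR-26b in 0.

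Some markers of cell sources differed among the cows as well, where the F test called 47.0% of the table. The summed level of the 5 immune miRNAs in the table (miR-146b, miR-155, miR-181a, miR-181b and miR-342) averaged 12.39 log2 CPM for Cow 3, against 11.04 for Cow 4, 11.07 for Cow 2 and 11.12 for Cow 1. That sum rests mostly on miR-181a, with a mean of 10.69 log2 CPM. The means of miR-181b, miR-342, miR-146b and miR-155 were 8.36, 8.35, 6.73 and 5.44. The F test over cows called 4 of the 5 immune miRNAs, all but miR-146b (adjusted p = 0.226). miR-142-3p, miR-142-5p, miR-150 and miR-223, markers of myeloid and lymphoid cells, are not listed. Red blood cell markers were down to miR-16a and miR-16b, both called among cows, since miR-144, miR-451 and miR-486 are not listed. All 6 epithelial markers were present, and their summed level was 16.53 log2 CPM for Cow 3, 16.24 for Cow 4, 16.32 for Cow 2 and 16.55 for Cow 1, with 3 of 6 called among cows. miR-148a, a miRNA abundant in milk, averaged 15.07 log2 CPM and was not called. The part of these sources in the cow differences of miR-26a and miR-26c was not tested.

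Among the 3 members, the libraries of a cow were closest in miR-26c. The squared deviations from the mean were split by level. For miR-26c, 70.2% lay between cows, 17.1% between days within a cow and 12.7% between the milkings of a day. The same shares were 53.6%, 36.4% and 9.96% for miR-26a. In miR-26b the order was another, with 12.2% from cows, 71.8% from days within a cow and 16.0% from the milkings of a day. The medians over the table were 26.8%, 37.7% and 30.0%.

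Over all cows, no member passed the test between collection days. The means of days 1 to 4 were 14.86, 14.85, 14.90 and 14.86 log2 CPM for miR-26c, 13.17, 13.27, 13.26 and 13.25 for miR-26b and 9.33, 9.16, 9.36 and 9.32 for miR-26a (n = 8, 6, 6 and 8). The adjusted p of limma's F test over days was 0.872 for miR-26c, 0.962 for miR-26b and 0.768 for miR-26a, with 0% of miRNAs called and 13 with an unadjusted p below 0.05. Within a cow, single days stood apart. miR-26a in Cow 2 was at 8.78 (evening) and 8.97 (morning) log2 CPM on day 2, against 9.69 to 10.43 on the other days, and both milkings of that day were below every other library of the cow.

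Somatic cells are a further possible source of RNA in milk, and SCC varied within cows. Per doubling of SCC, with cow as a covariate, the slope of miR-26c was 0.03 in log2 (SE 0.04, adjusted p = 0.808), that of miR-26b 0.06 (SE 0.07, adjusted p = 0.756) and that of miR-26a 0.12 (SE 0.09, adjusted p = 0.581). No member passed, where 2.27% of the miRNAs were called. The milkings of a day entered these SCC fits as separate values. The slopes moved with the libraries and the scaling. For miR-26b the slope was -0.02 without the day 3 evening library of Cow 2, the highest SCC of all, -0.11 without Cow 2, 0.24 without Cow 1 (SE 0.07, unadjusted p = 0.00288 and adjusted p = 0.275 in limma) and 0.16 without the day 3 libraries of Cow 1 and Cow 2. For miR-26a it was 0.02 without those day 3 libraries, 0.04 with plain read totals and 0.24 after quantile normalization (unadjusted p = 0.0269 and adjusted p = 0.355 in limma). For miR-26c it was 0.002 without those day 3 libraries, 0.01 without Cow 2 and -0.05 with plain read totals.

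SCC peaked on day 3 in Cow 1 and Cow 2, at 190 (evening) and 297 (morning) cells/µL in Cow 1 and 300 (evening) and 163 (morning) cells/µL in Cow 2. On that day miR-26b stood at 12.99 (evening) and 12.87 (morning) log2 CPM in Cow 1, against 13.35 to 13.65 on its other days. In Cow 2 it stood at 13.75 (evening) and 13.49 (morning), against 12.68 to 13.40 on its other days. The day 3 values thus lay outside those of the other days in both cows, below them in Cow 1 and above them in Cow 2. Per doubling of SCC, the slope was -0.21 for Cow 1, 0.27 for Cow 2, -0.28 for Cow 3 and 0.27 for Cow 4. A test of whether the slope of miR-26b differed between cows, added after these values had been seen, gave an F of 6.48 with an unadjusted p of 0.00189 and an adjusted p of 0.250 in limma, which did not pass. Over the table, 0% of the miRNAs passed this test, and miR-26b was the only one with an unadjusted p below 0.05. The milkings of a day entered that test as separate values, and no fit on the means of a day was run for SCC. In miR-26b 71.8% of the squared deviations lay between days within a cow and 16.0% between the milkings of a day. The unadjusted p may therefore be too small. Day 3 and the SCC peak cannot be told apart in these cows.

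The other members did not lie on opposite sides on day 3. miR-26c was at 14.91 (evening) and 14.82 (morning) log2 CPM in Cow 1, within the 14.74 to 14.92 of its other days, and at 15.13 in both milkings of Cow 2, just above the 14.88 to 15.08 of its other days. miR-26a was at 9.44 (evening) and 9.16 (morning) log2 CPM in Cow 1, against 8.60 to 9.21 on the other days, and at 10.06 (evening) and 9.94 (morning) in Cow 2, within 8.78 to 10.43. The adjusted p for a difference of slope between cows was 0.990 for both.

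**Figure D4:**
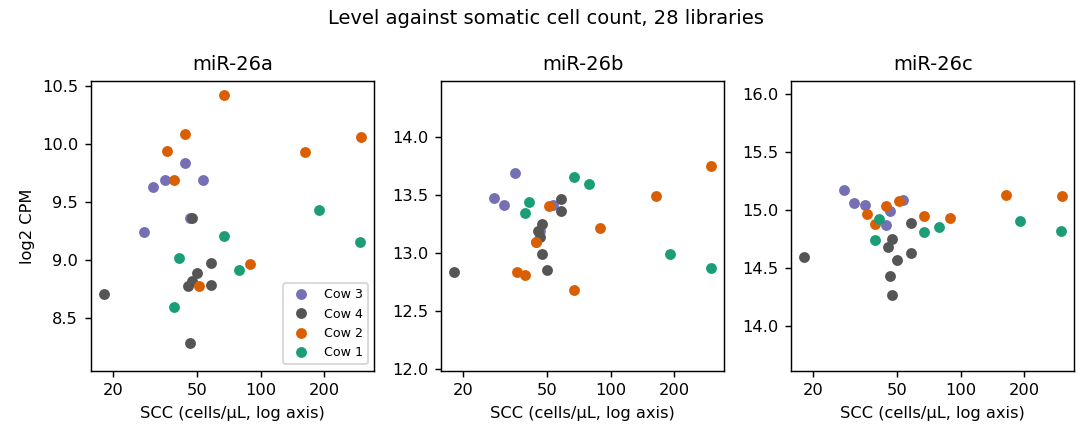
Level in log2 CPM (vertical axes, the same span in each panel) against SCC in cells/µL (horizontal axis, log scale) for the 28 libraries, coloured by cow, 1 panel per family member. The 4 libraries above 100 cells/µL are those of day 3 in Cow 1 and Cow 2, and for miR-26b they lie low in Cow 1 (12.87 and 12.99) and high in Cow 2 (13.49 and 13.75).

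A reference miRNA, used to scale the others in targeted assays, should vary little between samples. The measures below go by the names in the deposited table, and the division of reads between miR-26a and miR-26c is uncertain. Which of these 2 miRNAs the reads named miR-26c come from was not tested. Over the 28 libraries the SD of miR-26c was 0.220 in log2, the 8th smallest of the table, and its coefficient of variation in CPM was 14.3%, the 5th smallest. Within cows its SD was 0.127, the smallest of the table, and the SD of its evening minus morning difference was 0.159, the 2nd smallest. By geNorm M, the mean SD of the log2 ratio to every other miRNA, it had 0.640 and ranked 9. The medians of these measures over the table were 0.523 (SD), 0.490 (within cows), 0.558 (evening minus morning) and 0.799 (geNorm M).

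miR-26b was also below those medians, with an SD of 0.297 (rank 17), a within-cow SD of 0.295 (rank 22), a pair SD of 0.242 (rank 11) and a geNorm M of 0.667 (rank 18). miR-26a had an SD of 0.535 (rank 69) and a geNorm M of 0.840 (rank 77), both above the medians, with a within-cow SD of 0.386 (rank 42) and a pair SD of 0.343 (rank 27). Spread falls with abundance in this table, so each member was also set against miRNAs with a mean within 1 log2 unit of its own, itself included. miR-26c then ranked 4 of 11 by SD, 1 within cows, 2 between milkings and 4 by geNorm M. miR-26b ranked 7, 10, 5 and 7 of 16 in that order, and miR-26a 10, 6, 2 and 10 of 21.

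**Figure D5:**
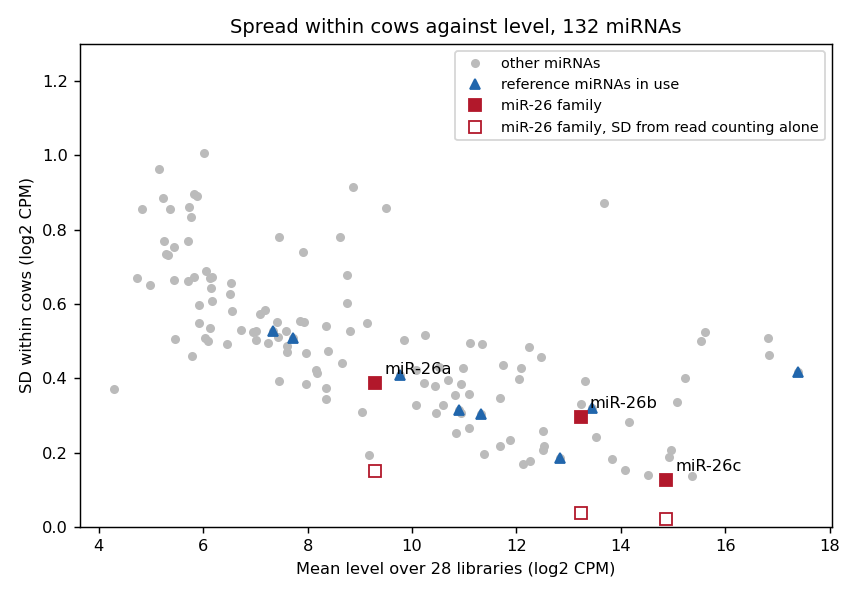
SD within cows (vertical axis, log2 CPM) against mean level over the 28 libraries (horizontal axis, log2 CPM) for all miRNAs of the table, with the miR-26 family as filled red squares, miRNAs often used as references as blue triangles and the SD that read counting alone gives for the family as open squares. miR-26c has the smallest SD within cows of the table, 0.127, above the 0.0214 of counting alone.

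The place of miR-26c depended on the scaling and on the cows included. With plain read totals in place of the authors' normalization factors its SD was 0.391, 1.78 times as large, and it ranked 22 by SD, 11 within cows, 10 between milkings and 9 by geNorm M. With equal library medians it ranked 5, 1, 1 and 9 by the same measures, and after quantile normalization 8, 5, 5 and 8. Setting medians equal shifts a whole library and cannot change geNorm M, so that rank of 9 is no check on scaling. Plain totals can change geNorm M only through the prior count. Without Cow 4 its SD was 0.121 and it ranked 1 by all 4 measures, whereas without Cow 1 it ranked 14, 4, 5 and 14 (SD 0.246), without Cow 2 10, 3, 3 and 10 and without Cow 3 9, 2, 4 and 12. The first place within cows was thus lost without Cow 1, Cow 2 or Cow 3. The ranks have no error attached, and neighbouring miRNAs differed little. The 5 smallest geNorm M values were 0.626 for miR-429, 0.630 for miR-200c, 0.632 for miR-30d, 0.634 for miR-191 and 0.635 for miR-27b, against 0.640 for miR-26c.

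Of 8 miRNAs often used as references, 7 had a larger SD than miR-26c: let-7a-5p (0.415), miR-16a (0.506), miR-16b (0.652), miR-25 (0.356), miR-93 (0.573), miR-103 (0.446) and miR-423-5p (0.324). The SD of miR-191 was 0.218. The count of 7 is no result about references, since miR-26c had the 8th smallest SD of the table. Most other miRNAs exceeded it as well. Only let-7a-5p (mean 17.39 log2 CPM) was more abundant than miR-26c (14.87), and miR-16b (7.33) and miR-93 (7.73) were the lowest. Read counting alone would give an SD of 0.327 for miR-16b and 0.283 for miR-93, against 0.0214 for miR-26c. The comparison with these 8 references was not matched on level. Among these 8, the F test called 4 among cows (miR-16a, miR-16b, miR-25 and miR-103), a share close to the 47.0% of the table, and 0 were called for session (0% of the table) or SCC (2.27% of the table). miR-26c was itself called among cows (adjusted p = 0.000622 in limma's F test). By the same test let-7a-5p (0.473), miR-423-5p (0.388), miR-93 (0.0644) and miR-191 (0.0519) were not. The small SD of miR-26c within cows therefore does not make it steadier between animals than these. A list of 5 miRNAs was taken after those the study cites as stable over the day in human milk, with miR-146b standing for a miR-146 cited without a letter. Among them let-7g had an SD of 0.202, miR-21-5p 0.260, let-7a-5p 0.415, let-7d 0.447 and miR-146b 0.558, and miR-21-5p alone was called among cows.

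The miRNAs with the steadiest ratio to each member were found by the SD of the log2 ratio over the 28 libraries. This is a description that shares depth and scaling within each library, and it favours miRNAs with a small SD of their own. For miR-26c these were miR-200b (0.159), miR-27b (0.190), let-7g (0.208), miR-429 (0.248) and miR-200c (0.250). By their own SD these ranked 2, 6, 3, 1 and 5 in the table. Their Pearson correlation with miR-26c was 0.713, 0.618, 0.514, 0.246 and 0.335 in the same order. miR-26a correlated with miR-26c by 0.569 yet stood 36th by the SD of the ratio. miR-200b, miR-200c and miR-429 belong to the epithelial miR-200 family, and shared variation with that family was not tested. For miR-26b they were miR-200c (0.273), miR-186 (0.287), miR-2284x (0.289), miR-26c (0.293) and let-7g (0.320). For miR-26a they were let-7i (0.403), miR-200b (0.429), let-7g (0.445), miR-26c (0.448) and miR-669 (0.50). Between miR-26a and miR-26b the SD was 0.637, which placed miR-26a 65th among the neighbours of miR-26b and miR-26b 29th among those of miR-26a.

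Ratios within a library do not depend on its scaling, but those given here rest on the uncertain division of reads between miR-26a and miR-26c. miR-26c exceeded miR-26a by a median of 50.05-fold (23.1-fold to 78.7-fold), miR-26c exceeded miR-26b by 3.17-fold (2.23-fold to 4.83-fold), and miR-26b exceeded miR-26a by 15.8-fold (4.77-fold to 28.8-fold). The mean log2 ratio of miR-26c to miR-26a was 5.57 ± 0.48 in the evening and 5.56 ± 0.43 in the morning, that of miR-26c to miR-26b 1.62 ± 0.26 and 1.64 ± 0.33, and that of miR-26b to miR-26a 3.95 ± 0.61 and 3.92 ± 0.69 (SD, n = 14 each). The evening ratio was the larger in 7 of 14 pairs for the first 2 ratios and in 8 for the third (exact two-sided permutation of signs over 14 pairs, p = 0.910, 0.756 and 0.753, adjusted p over the 3 ratios = 0.910 for each). Among cows, tested on the means of the 14 pairs, no ratio passed (100000 permutations of the F statistic, p = 0.276, 0.232 and 0.155 in the same order, adjusted p = 0.276 for each).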

How the data were processed

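Small RNA from EVs of skimmed milk was sequenced in 28 libraries. The authors cleaned reads with Trim Galore! (adapters, low quality, short reads and PCR duplicates), filtered unique sequences on CPM, assigned them to the mature miRNAs that miRBase lists for cattle and merged isomiRs into their canonical miRNA. The deposited values are log2 CPM, made by the authors with edgeR from effective library sizes with a prior count of 2. A genome build is not given in the sources used here. Read counts were worked back from these values, and all 3696 were whole within 0.01. They gave read totals (101968 to 325211, median 158620), counting SDs and 1 alternative fit. Counting error does not cover amplification.

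The deposited log2 values were fitted with limma 3.58.1 in R 4.3.3 (trended variances, two-sided, Benjamini-Hochberg over 132 miRNAs, FDR 0.05): session and SCC with cow as covariate, cows by F test and 6 contrasts, days with cow and session, and interactions with cow. Ratios, ranks and plots used Python 3.11.15, numpy 2.4.6, scipy 1.17.1, pandas 2.3.3 and matplotlib 3.10.9. Because p-values rest on repeated milkings of 4 animals, they measure the spread between these milkings. Milkings of a cow and day come from the same animal and were paired in the replicate block. Residuals after cow and session, correlated between libraries over all 132 miRNAs, gave 0.0774 on average within the 14 pairs and -0.203 between other days of a cow. These averages cover the table and do not describe the members. Of the squared deviations from the mean, without correction for the number of values at each level, days within a cow held 71.8% in miR-26b, 36.4% in miR-26a and 17.1% in miR-26c. The milkings of a day held 16.0%, 9.96% and 12.7% in the same order. The fits were tested on simulated data.

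The members, marker lists and reference lists were chosen with earlier results of these data known. Named were all members, the 5 miRNAs nearest to each by the SD of the log2 ratio, the 5 with the smallest geNorm M, and the lists. Gene neighbours came from RefSeq names, matched for 130 of 132 miRNAs, and a planned search for shared seeds and complementary sequences was not run. Alternatives changed the variance trend, robust variances, scaling, added constants (1 and 50 CPM), a filter on a mean log2 of at least 7 (94 miRNAs), limma-voom on the read counts, cow, session and day terms, the SCC scale, blocks, pair means, and the omission of cows, days and each library. Plain read totals and the test of SCC slopes between cows were added after the data had been seen.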

Additional observations from a re-analysis of the deposited data

Results flagged for a closer look

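In 24 sets of values of 1 family member or ratio within 1 cow, the gap of the highest or lowest library was compared with the whole range, and 2 libraries stood apart, where chance gives about 1 in 20. The log2 ratio of miR-26c to miR-26a was 4.91 in the day 2 evening library of Cow 4, below the other 7 libraries of that cow, with a gap of 0.621 of the range. The library held the highest miR-26a level (9.36 log2 CPM, 71 reads) and the lowest miR-26c level (14.27) of the cow, and its 10 most abundant miRNAs took 79.4% of its reads, the highest share of the 28 libraries, whose part in the low ratio was not tested. The log2 ratio of miR-26c to miR-26b was 1.36 in the day 2 morning library of Cow 3, below the other 5, with a gap of 0.665 of the range, and miR-26b was there at its highest level for the cow, 13.69 log2 CPM. That library held 116395 reads, and the evening library of Cow 4 held 157829.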

How the results depend on the processing

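Of 1845 recomputed values, 1753 kept direction and side of the threshold (or stayed within 1 SD), 65 changed sign, 17 lost and 8 gained a call, and 2 moved. The session differences lay near 0 and changed sign with several settings, none past the threshold. miR-26a gave 0.0140 with equal library medians, 0.0128 with quantile normalization and 0.0248 without Cow 2. miR-26b gave -0.0533 with quantile normalization, -0.000448 with plain totals, -0.0127 without Cow 1 and -0.0813 without Cow 2. miR-26c gave 0.0255 with equal medians and 0.0482 without Cow 4. Leaving out 1 library gave -0.0953 to 0.0518 for miR-26a, -0.0493 to 0.0313 for miR-26b and -0.0305 to 0.0107 for miR-26c. The SCC slope of miR-26b was -0.0250 with quantile normalization, -0.0156 with plain totals, -0.114 without Cow 2, 0.239 without Cow 1, 0.161 without day 3 of Cow 1 and Cow 2, and -0.0176 to 0.144 without 1 library. That of miR-26a ran from 0.0181 without day 3 of Cow 1 and Cow 2 to 0.240 with quantile normalization. That of miR-26c was -0.0476 with plain totals and -0.0144 with collection day as covariate. Without Cow 4 the cow F of miR-26c was 2.55. As a measure of spread, geNorm M gave 0.667 for miR-26b and 0.640 for miR-26c and is on another scale than the SD.

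Without Cow 2, the evening minus morning log2 ratios were -0.0621 (miR-26c to miR-26a), 0.0440 (miR-26c to miR-26b) and -0.106 (miR-26b to miR-26a), and without 1 library they ran from -0.0319 to 0.0718, -0.0459 to 0.0139 and -0.0260 to 0.0749. Among cow contrasts, signs changed for miR-26a in Cow 3 minus Cow 2 (0.0427 with equal medians), for miR-26b in Cow 2 minus Cow 1 (0.0141 with quantile normalization) and Cow 4 minus Cow 2 (0.159 with equal medians, -0.0932 to 0.0592 without 1 library), and without 1 library for miR-26b in Cow 3 minus Cow 1 (-0.0264 to 0.131) and miR-26c in Cow 3 minus Cow 2 (-0.000529 to 0.0599). For miR-26a, Cow 2 minus Cow 1 lost its call with equal medians (0.65), quantile normalization (0.59), limma-voom (0.65) and pair means (0.68), and Cow 3 minus Cow 4 with quantile normalization (0.66) and pair means (0.75). Cow 3 minus Cow 1 of miR-26a passed without Cow 2 (0.52). The adjusted p for the difference of SCC slope of miR-26b between cows ran from 0.0909 to 0.998 without 1 library. The replicate block changed no call. The causes were not tested. With 45 to 187 reads, miR-26a is limited by depth more than the others.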
